A study of Mus musculus with 8 samples.

Results

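The miR-181 family was followed in small RNA libraries of mouse bone marrow LSK cells, through every row of the deposited count table named miR-181a, miR-181b, miR-181c or miR-181d. These were 7 of 190 mature microRNAs (miRNAs), namely the 5p strands mmu-miR-181a-5p, mmu-miR-181b-5p, mmu-miR-181c-5p and mmu-miR-181d-5p, written below without the species prefix, and the 3p strands miR-181a-1-3p, miR-181a-2-3p and miR-181c-3p. The rule used names only, so no measured value decided which rows belong, but the family was chosen with earlier results of these data known. LSK cells lack lineage markers and carry Sca1 and cKit, and the sort captures blood stem cells together with early multipotent progenitors. The groups were db/db mice of strain B6.BKS(D)-Leprdb/J, homozygous at the leptin receptor (Lepr) and used to model obese diabetes, and db/m mice labelled B6.BKS(D)-Leprdb/+ db/m, heterozygous at Lepr. All 8 samples, 4 per genotype, carry a label of 6 months after diabetes, the controls included. Neither age nor sex is stated, the db mutation acts in every tissue, and the labels do not say that each library is another animal: p-values cover the spread of these 8 samples, which may be technical. Since all titles read db/m, genotype labels were used for grouping.

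A miRNA guides a silencing complex to messenger RNAs that carry a match to its seed, the bases near its 5′ end. Members of the miR-181 family share a seed and are best known in blood for lymphoid development: in mice miR-181a sharpens the response of developing T cells to antigen by lowering phosphatases of the receptor pathway, and raising it in bone marrow progenitors favours the B lineage. The family is made from 3 hairpin pairs, and each pair is thought to be cut from a single primary transcript.

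The mature 5p strands are shown because their near-identity decides how far single members can be told apart. Capitals mark the seed, bases 2 to 8, and sequences are from RefSeq on GRCm38.p6, the patch series of the mm10 build.
miR-181a-5p: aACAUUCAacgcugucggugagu
miR-181b-5p: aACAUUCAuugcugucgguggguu
miR-181c-5p: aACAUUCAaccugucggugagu
miR-181d-5p: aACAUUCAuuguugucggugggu
All 4 carried the seed ACAUUCA, whose complement in a target is UGAAUGU, and no other of the 1679 mature names in the reference did. Outside the seed the closest pairs ran across the genomic pairs. miR-181c-5p differed from miR-181a-5p by 1 missing base, whereas miR-181d-5p differed from miR-181b-5p by C12U and 1 missing base at the 3′ end, with positions counted from 1 at the 5′ end. miR-181b-5p, the cluster partner of miR-181a-5p, differed from it by A9U, C10U, A21G and 1 added base, an edit distance of 4. The distance between miR-181c-5p and its partner miR-181d-5p was 5.

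The 3p strands are shown because they tell hairpins apart that give the same 5p strand. Here capitals mark the bases that differ among the 3 sequences.
miR-181a-1-3p: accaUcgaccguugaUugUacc
miR-181a-2-3p: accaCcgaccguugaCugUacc
miR-181c-3p: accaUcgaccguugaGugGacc
From miR-181a-1-3p, miR-181a-2-3p differed by U5C and U16C, and miR-181c-3p by U16G and U19G. The mature miR-181a-5p and miR-181b-5p are identical between chromosome 1 and chromosome 2, so their counts cannot be assigned to either locus. The sources used here do not say how reads matching several members were assigned, and all single-member values are uncertain to that extent.

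In GRCm38 coordinates of the GENCODE annotation, Mir181a-1 (chr1:137966455-137966541) and Mir181b-1 (chr1:137966639-137966718) lie on the plus strand with 97 bases between them. They fall in an intron of the noncoding gene Gm4258 and overlap an exon of the noncoding gene A430106G13Rik on the same strand, with an intron of Gm26936 on the opposite strand. Mir181a-2 (chr2:38852735-38852810) and Mir181b-2 (chr2:38853830-38853918) lie 1019 bases apart on the plus strand, opposite an intron of Nr6a1, which encodes an orphan nuclear receptor. Mir181b-2 also overlaps an exon of Gm44144 on the opposite strand. Mir181c (chr8:84178873-84178961) and Mir181d (chr8:84178716-84178787) lie 85 bases apart on the minus strand, in an intron of the annotated gene Nanos3, which encodes a germ cell RNA-binding protein, on the same strand.

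**Figure D1:**
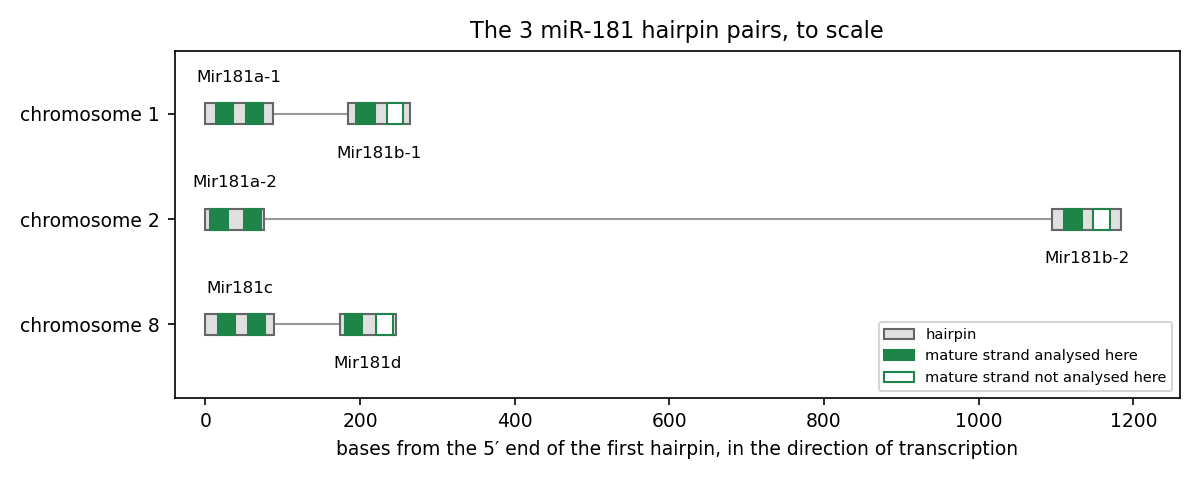
Hairpins (grey) and mature strands (green) of the miR-181 pairs on chromosomes 1, 2 and 8, drawn to scale in bases from the 5′ end of the first hairpin in the direction of transcription. The pairs are separated by 97, 1019 and 85 bases, and open boxes are mature strands not analysed here.

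Total counts ran from 36145 to 54228 in db/db libraries and from 13273 to 77834 in db/m libraries, so that 3 counts, the floor of detection used here, were worth 52.3 to 81.0 CPM in db/db and 40.3 to 229 CPM in db/m (CPM, counts scaled by TMM-adjusted library size). The shallowest library, db/m replicate 2, limits every low member. Of the 8 stem and progenitor miRNAs listed as LSK markers all passed the count filter, and their summed level was 86208 to 120946 CPM in db/db libraries and 60574 to 93211 CPM in db/m libraries. Of these 8, 3 rose in db/db by edgeR, miR-196b-5p and both strands of miR-126a, beside 4.86% of all tested miRNAs called in either direction, and the list was assembled with that result known. The summed level of 4 miRNAs listed as mature lymphoid was 21903 to 27672 CPM in db/db libraries and 22044 to 27860 CPM in db/m libraries. Its largest part was miR-142a-3p, with means of 12855 CPM in db/db and 11018 CPM in db/m. Whether this sum follows mature lymphoid cells was not tested. Among these 4, log2 fold changes were above 0 for 2 and below 0 for 2. The lowest was that of miR-150-5p, at 3461 CPM in db/db and 5487 CPM in db/m (-0.63, edgeR adjusted p = 0.183). The 3 of 4 myeloid miRNAs with a row summed to 36363 to 51487 CPM in db/db and 41656 to 45943 CPM in db/m. This sum joins unlike members, with log2 fold changes of 0.41 for miR-21a-5p, -0.55 for miR-146a-5p and -0.06 for miR-223-3p. Their edgeR adjusted p-values were 0.171, 0.308 and 0.932. The erythroid miR-486a-5p, alone of its list of 4, ran from 1108 to 5754 CPM in db/db and from 2252 to 3388 CPM in db/m, and 2 of 5 stromal miRNAs summed to 175 to 1236 CPM in db/db and 76.4 to 498 CPM in db/m. miR-122-5p of liver ran from 331 to 702 CPM in db/db and from 242 to 1452 CPM in db/m, and miR-1a-3p, alone of 3 muscle miRNAs, from 139 to 1135 CPM in db/db and from 19.2 to 242 CPM in db/m. Any part of these cells in the miR-181 values was not tested, and in sorted bulk samples fewer cells of a type and less RNA per cell cannot be told apart.

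miR-181a-5p was by far the most abundant member and ranked 24th of 190 by mean level. It had 10926, 9872, 18506 and 5961 CPM in db/db replicates 1 to 4 and 12294, 6724, 15449 and 12854 CPM in db/m replicates 1 to 4. The genotypes overlapped over almost their whole range, with db/db replicate 3 highest and db/db replicate 4 lowest of all 8. The means were 11316 ± 5247 CPM in db/db and 11830 ± 3671 CPM in db/m (SD, n = 4 each). The log2 fold change of db/db over db/m was -0.08 (SE 0.32, 95% interval -0.79 to 0.63, edgeR adjusted p = 0.932). Its sign turned to 0.04 under scaling by library totals, 0.20 without db/db replicate 4, and 0.02 without db/m replicate 3 or without both db/db replicates 1 and 2.

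miR-181b-5p, processed from the same 2 loci, had 1063, 855, 1621 and 1082 CPM in db/db replicates 1 to 4. In db/m replicates 1 to 4 it had 1404, 1299, 1546 and 1360 CPM. All db/m libraries lay above db/db replicates 1, 2 and 4 and below db/db replicate 3. The means were 1155 ± 327 CPM in db/db and 1402 ± 105 CPM in db/m (SD, n = 4 each), with a log2 fold change of -0.30 (SE 0.25, 95% interval -0.84 to 0.25, edgeR adjusted p = 0.580). It was closer to 0 without both db/db replicates 1 and 2 (-0.06) and farther without both db/db replicates 3 and 4 (-0.50).

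miR-181c-5p, from the chromosome 8 pair, was the member with the clearest separation of the genotypes. Its counts were 31, 19, 20 and 17 in db/db replicates 1 to 4, against 10, 2, 19 and 10 in db/m replicates 1 to 4. On the CPM scale these were 540.2, 369, 540.3 and 375 in db/db and 265, 153, 255 and 192 in db/m. Every db/db library lay above every db/m library, but exact 95% Poisson intervals of the counts overlap. That of db/m replicate 2, whose 2 counts lie below the floor of 3 counts, spans all db/db values (18.5 to 552 CPM). Those of db/m replicates 1 (127 to 487 CPM) and 3 (154 to 399 CPM) cover the values of db/db replicates 2 and 4. Conversely, the intervals of db/db replicates 2 (222 to 577 CPM) and 4 (219 to 601 CPM) cover the values of db/m replicates 1 and 3. Intervals of db/db replicates 1 and 3 and db/m replicate 4 hold no value of the other genotype. The means were 456 ± 97.0 CPM in db/db and 216 ± 53.4 CPM in db/m (SD, n = 4 each). The log2 fold change was 1.00 (SE 0.32, 95% interval 0.32 to 1.69, edgeR unadjusted p = 0.00759, adjusted p = 0.091), so the difference did not pass an adjusted p of 0.05. By p it ranked 12th of the 144 tested miRNAs.

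miR-181d-5p, made from the same chromosome 8 pair, was split within the db/db genotype. It had 575, 525, 243.1 and 242.9 CPM in db/db replicates 1 to 4 and 185, 229, 323 and 115 CPM in db/m replicates 1 to 4. db/db replicates 1 and 2, whose titles share a number, lay above every db/m library, and db/db replicates 3 and 4, which share another, lay within the db/m range. A further number is shared by db/m replicates 1 to 3. The labels do not explain these numbers, and none occurs in both genotypes. The means were 396 ± 178 CPM in db/db and 213 ± 86.9 CPM in db/m (SD, n = 4 each), with a log2 fold change of 0.89 (SE 0.42, 95% interval -0.03 to 1.81, edgeR adjusted p = 0.244). Without db/db replicates 1 and 2 it was 0.20, and without db/db replicates 3 and 4 it was 1.42, at edgeR adjusted p of 0.960 and 0.100. miR-181c-5p had 1.02 and 1.09 in the same fits (adjusted p = 0.466 and 0.129).

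**Figure D2:**
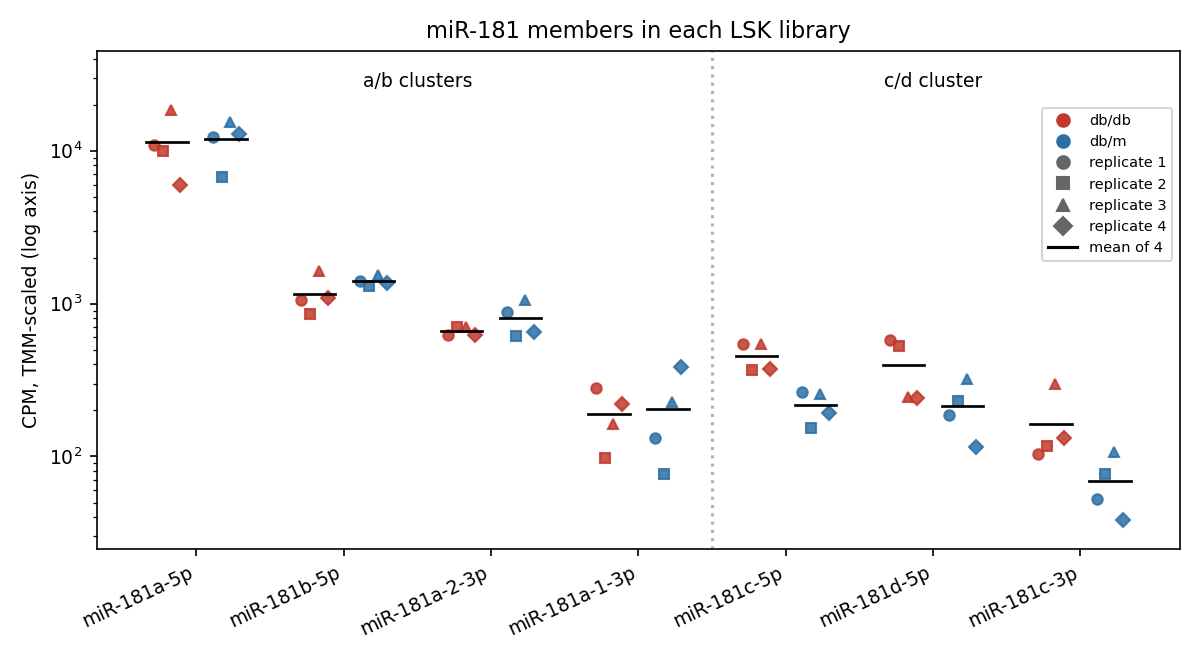
Level of each miR-181 member in CPM on a log axis, with 1 point per LSK library (db/db red, db/m blue, shape for the replicate number, which names a library and pairs nothing) and a bar at the mean of 4. The genotypes are apart for miR-181c-5p, at 369 to 540.3 CPM in db/db and 153 to 265 CPM in db/m, and overlap for the other 6 rows.

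The 3p strands of miR-181a come from separate loci and so bear on the chromosome 1 and chromosome 2 pairs one at a time. miR-181a-2-3p, of chromosome 2, had 627, 699.6, 702 and 618 CPM in db/db replicates 1 to 4, against 874, 611, 1062 and 651 CPM in db/m replicates 1 to 4. Its db/m libraries bracketed the db/db ones, and the log2 fold change was -0.31 (SE 0.28, edgeR adjusted p = 0.604). miR-181a-1-3p, of chromosome 1, had 279, 97.2, 162 and 221 CPM in db/db and 132, 76.4, 229 and 383 CPM in db/m. These values overlapped and rest on 5 to 16 counts per db/db library and 1 to 20 per db/m library. The 1 count of db/m replicate 2 lies below the floor of 3 counts. The log2 fold change of miR-181a-1-3p was -0.26 (SE 0.47, edgeR adjusted p = 0.860). Scaled by library totals, its means were level, at 195.9 CPM in db/db and 195.8 CPM in db/m.

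Of the miR-181a 3p counts, 37 of 163 in db/db and 43 of 197 in db/m were miR-181a-1-3p. Per library the share was 30.8%, 12.2%, 18.8% and 26.3% in db/db replicates 1 to 4 and 13.2%, 11.1%, 17.7% and 37.0% in db/m replicates 1 to 4. The exact Clopper-Pearson 95% intervals reached from 18.7% to 45.1% in db/db replicate 1 and from 24.3% to 51.3% in db/m replicate 4. The means, 22.0% ± 8.21 in db/db and 19.8% ± 11.8 in db/m (SD, n = 4 each), differed by less than the spread between libraries (exact two-sided permutation p = 0.743). miR-181a-2-3p thus outnumbered miR-181a-1-3p in every library of both genotypes.

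miR-181c-3p, the other strand of the miR-181c hairpin, was too low for the test. Its counts were 6, 6, 11 and 6 in db/db replicates 1 to 4, and 2, 1, 8 and 2 in db/m replicates 1 to 4. Those of db/m replicates 1, 2 and 4 lie below the floor of 3 counts. In CPM these were 105, 117, 297 and 132 in db/db and 53.0, 76.4, 108 and 38.3 in db/m, where db/m replicate 3 reached above db/db replicate 1. The authors' deposited table, which tested all 190 rows, listed it at 1.04 on the log2 fold change scale, at 0.302 in false discovery rate. The 3p strand took 25.4% ± 7.93 of the miR-181c counts in db/db and 24.1% ± 8.69 in db/m (SD, n = 4 each), with a two-sided exact permutation p of 0.857. For miR-181a that share was 7.98% ± 3.25 in db/db and 8.0% ± 0.858 in db/m (exact permutation p = 0.943).

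Of the 7 rows 6 passed the count filter, and 0 of these passed an adjusted p of 0.05 by edgeR's quasi-likelihood test. Across all 144 tested miRNAs 7 did, or 4.86%. By DESeq2, which gave 5 of the 6 members and 121 miRNAs an adjusted p and left out miR-181a-1-3p, 0 members passed beside 13.2% of the 121. By edgeR's likelihood ratio test 0 passed beside 8.33% of all tested. At an unadjusted p under 0.05 there was 1 member, miR-181c-5p, beside 22.2% of all tested. Groups did not overlap for 1 member, miR-181c-5p, beside 17.4% of all tested (8.33% with db/db above). The log2 fold changes of the 4 tested a/b rows ran from -0.31 to -0.08 and those of the 2 tested c/d rows were 0.89 and 1.00. The median of all 144 was -0.03, with 66 above 0, and under scaling by library totals that median moved up by 0.11. The authors' deposited table gave -0.17 for miR-181a-5p, -0.39 for miR-181b-5p, 0.91 for miR-181c-5p and 0.83 for miR-181d-5p, and 0 of the 7 rows at a false discovery rate under 0.05, beside 10 of all 190 rows (5.26%).

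**Figure D3:**
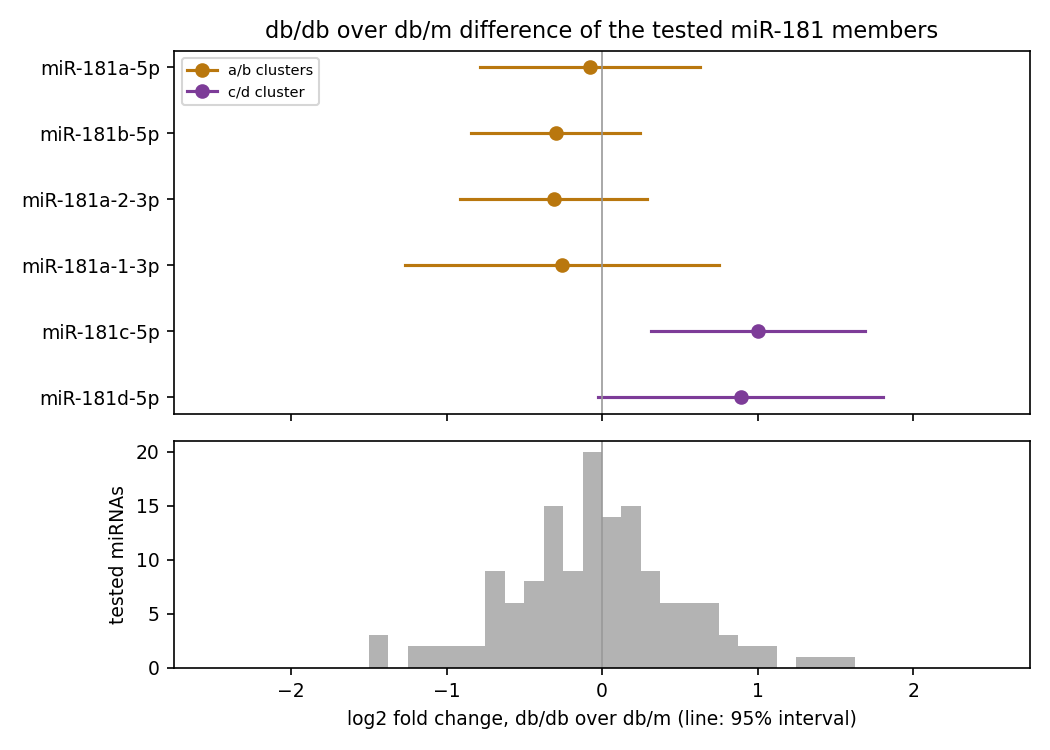
Top, log2 fold change of db/db over db/m with its 95% interval for the 6 tested miR-181 members, coloured by cluster; bottom, the same quantity for all 144 tested miRNAs as a histogram. The interval of miR-181c-5p (0.32 to 1.69) leaves out 0 before adjustment, and those of the other 5 include it.

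The a/b and c/d clusters were set against each other within each library, where library scaling cancels. This comparison was chosen with earlier results of these data known. miR-181c-5p plus miR-181d-5p made up 8.51%, 7.69%, 3.75% and 8.07% of the 5p counts of the family in db/db replicates 1 to 4, against 3.18%, 4.55%, 3.29% and 2.11% in db/m replicates 1 to 4. Of the db/db libraries 3 lay above every db/m library, and db/db replicate 3 lay below db/m replicate 2. The share rests on 64, 46, 29 and 28 counts of the c/d cluster in db/db and on 17, 5, 43 and 16 in db/m. It averaged 7.0% ± 2.20 in db/db and 3.28% ± 0.996 in db/m (SD, n = 4 each).

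As a log2 ratio of c/d to a/b counts this was -3.80 ± 0.59 in db/db and -4.93 ± 0.47 in db/m (SD, n = 4 each), a difference of 1.13 or 2.19-fold. The exact two-sided permutation p was 0.0571, where the smallest that 4 libraries against 4 can give is 0.0286. The ratio of miR-181c-5p to miR-181a-5p, near-identical in sequence, differed by 1.20 on the log2 scale with every db/db library above every db/m library (exact permutation p = 0.0286, the smallest possible). That of miR-181d-5p to miR-181b-5p differed by 1.19 (exact permutation p = 0.114). With Benjamini-Hochberg adjustment over the 6 ratios and shares compared within the family, these p-values became 0.171, 0.171 and 0.229. None passed 0.05. At a smallest possible p of 0.0286, no ratio could pass unless most of the 6 measures reached that value. The adjusted p therefore cannot decide whether the clusters differ. Without db/db replicate 3, the only db/db library inside the db/m range, the c/d to a/b difference was 1.43, at an unadjusted exact permutation p of 0.0286 that its removal fixes in advance. Without each of the other 7 libraries in turn, the unadjusted exact permutation p was 0.0571 to 0.0857. With libraries of 1 title number summed, the c/d to a/b difference was 1.34. Its exact permutation p was then 0.333, the smallest that so few sums can give.

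**Figure D4:**
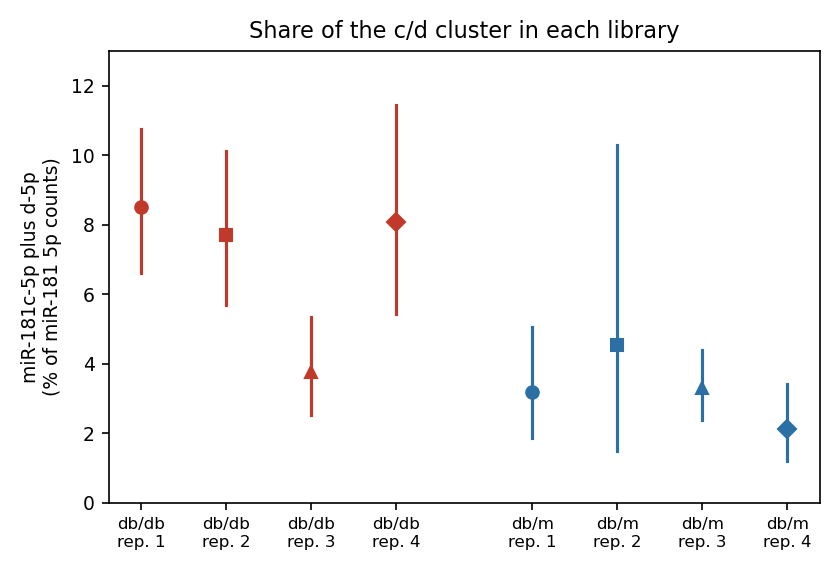
Percent of the miR-181 5p counts that were miR-181c-5p or miR-181d-5p in each library (db/db red, db/m blue), with exact Clopper-Pearson 95% intervals for counting error. Values run from 3.75% to 8.51% in db/db and from 2.11% to 4.55% in db/m, with db/db replicate 3 inside the db/m range.

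For 1 count of miR-181c-5p there were 20.2, 26.7, 34.2 and 15.9 counts of miR-181a-5p in db/db replicates 1 to 4 and 46.4, 44, 60.5 and 67.1 in db/m replicates 1 to 4. These ratios rest on 2 to 31 counts of miR-181c-5p per library. miR-181b-5p exceeded miR-181d-5p 1.85, 1.63, 6.67 and 4.45 times in db/db and 7.57, 5.67, 4.79 and 11.8 times in db/m. With a-5p and b-5p counted as 1 feature and c-5p and d-5p as another, the log2 fold changes were -0.12 (SE 0.31, edgeR adjusted p = 0.898) and 0.94 (SE 0.32, edgeR adjusted p = 0.113).

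The order of the members by level was as follows. By mean CPM over the 8 libraries miR-181b-5p ranked 65th of 190, miR-181a-2-3p 81st, miR-181c-5p 116th, miR-181d-5p 124th, miR-181a-1-3p 150th and miR-181c-3p 182nd. miR-181a-5p exceeded miR-181b-5p in every library, by 5.51 to 11.5 times in db/db and 5.18 to 9.99 times in db/m, and miR-181b-5p exceeded miR-181a-2-3p in every library. The neighbours miR-181c-5p and miR-181d-5p did not differ beyond their spread, as miR-181c-5p was 0.704 to 2.22 times miR-181d-5p in db/db and 0.667 to 1.67 times in db/m. The 4 members' 5p strands together took 1.37% ± 0.572 of all counts in db/db and 1.3% ± 0.353 in db/m (SD, n = 4 each), of which miR-181a-5p alone made up 83.7% ± 4.45 in db/db and 85.8% ± 3.95 in db/m.

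Members of a pair did not vary together past the threshold over the 8 libraries. On log2 CPM, Pearson's r was 0.59 between miR-181a-5p and miR-181b-5p (Spearman's rho 0.79) and 0.59 between miR-181c-5p and miR-181d-5p (rho 0.57), with exact permutation p of 0.122 for each r and of 0.0279 and 0.151 for the rho values. Without the 2 libraries farthest from the median of the first-named member, r was 0.90 and 0.83. After adjustment over the 6 pairs of 5p strands no r or rho passed 0.05 (smallest adjusted p of 0.245 and 0.168). With each genotype's mean subtracted, r was 0.64 for miR-181a-5p with miR-181b-5p and 0.14 for miR-181c-5p with miR-181d-5p. For miR-181a-5p with miR-181c-5p it was 0.78, whereas the pooled r was 0.27 (rho 0.14, exact permutation p of 0.509 and 0.752), and 0.07 without the 2 farthest libraries. The other pairs across the clusters had centred r of 0.61 (miR-181b-5p with miR-181c-5p), 0.0046 (miR-181a-5p with miR-181d-5p) and -0.41 (miR-181b-5p with miR-181d-5p). No p-value was computed for r with genotype means subtracted. How reads were assigned between near-identical members is unknown.

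The miRNAs whose levels over the 8 libraries were most like miR-181c-5p were miR-29a-3p (r 0.94, rho 0.93), miR-29c-3p (r 0.94, rho 0.88) and miR-326-3p (r 0.88, rho 0.88). miR-29 miRNAs are known to target collagens and DNA methyltransferases. Exact permutation p of r was 0.000298, 0.000645 and 0.00508, and 0.0633, 0.0633 and 0.173 after adjustment over 276 relations. Without the 2 libraries farthest from the median of miR-181c-5p, r was 0.95, 0.97 and 0.90, and with genotype means subtracted it was 0.84, 0.80 and 0.72. Most like miR-181a-5p were miR-378a-5p (r 0.85, rho 0.88), miR-106b-3p (r 0.84, rho 0.83) and miR-30d-5p (r 0.80, rho 0.76), at exact permutation p of 0.00794, 0.00833 and 0.0175 (adjusted 0.192, 0.192 and 0.228). Their r without the 2 farthest libraries was 0.75, 0.87 and 0.84, and with genotype means subtracted it was 0.85, 0.92 and 0.85. For the 6 rho values, exact permutation p lay between 0.00223 and 0.0368 and adjusted p between 0.250 and 0.282. Among all 276 relations, the same number for each member, r had an unadjusted exact permutation p under 0.05 for 35 miRNAs with miR-181c-5p and 12 with miR-181a-5p. These r values pool the genotypes, between which 22.2% of all tested miRNAs had an unadjusted edgeR p under 0.05. The count for miR-181c-5p may therefore hold its genotype difference, which was not separated out. After adjustment 0 passed for either member. Libraries share depth and scaling across all miRNAs, and 4 per genotype are too few for a correlation within each.

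Of 15 other miRNAs listed for lymphocyte development, all tested, 0 passed an adjusted p of 0.05 in either direction by edgeR, beside 4.86% of all tested. Their log2 fold changes were above 0 for 7 and below 0 for 8, with a median of -0.06 beside -0.03 for all tested, and 4 had an unadjusted p under 0.05, a share near the 22.2% of all tested. This list shares miR-223-3p and miR-146a-5p with the myeloid list above and holds every miRNA of the mature lymphoid list. Its smallest p-values were those of miR-128-3p and miR-29a-3p. miR-128-3p averaged 1305 CPM in db/db and 2278 CPM in db/m (log2 fold change -0.82, SE 0.24, edgeR adjusted p = 0.0637). miR-29a-3p averaged 16225 CPM in db/db and 10861 CPM in db/m (log2 fold change 0.57, SE 0.19, edgeR adjusted p = 0.107).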

How the data were processed

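Small RNA of 8 LSK samples was sequenced with the Qiaseq miRNA kit, per the labels' protocols. Per the file headers, the authors deposited raw counts by mature miRNA, log2 CPM by library, and their own comparison as a log2 fold change, a signed fold value taken as a score, a p-value and a false discovery rate. Only the counts and that comparison were used. The submitters' processing notes name edgeR 3.41.9 and mm10. The aligner, any collapsing of molecular identifiers and any earlier filters were not given in the sources used here. Counts may therefore be reads or molecules, and intervals hold for counting error only. 0 columns lacked a sample.

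Counts of all miRNAs were filtered (filterByExpr, minimum count 10, minimum total 15), scaled by TMM and tested by edgeR 4.0.16 (glmQLFit robust, glmQLFTest) in R 4.3.3, with Benjamini-Hochberg adjustment over 144 miRNAs and a threshold of 0.05. The authors' log2 fold changes were matched by a likelihood ratio test on all 190 miRNAs. SE is the log2 fold change over the square root of F. CPM values are mean ± SD. Ratios were compared by exact two-sided permutation over 70 assignments. The edgeR steps were tested on simulated data. Other scalings, filters, DESeq2 1.42.0, summed libraries and left-out libraries were tried.

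The members, the lists and the ratio of c/d to a/b counts were chosen with earlier results of these data known. Named are all members, the 3 miRNAs most correlated (log2 CPM, prior count 2) with miR-181a-5p and with miR-181c-5p, and members of the lymphocyte list past the threshold or else its 2 of smallest p.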

Additional observations from a re-analysis of the deposited data

Results flagged for a closer look

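Single libraries stood apart from the other 3 of their genotype in 3 of 26 sets of 4 values checked by the gap to the nearest library over the range of all 4 (Dixon's test at the 95% level). Chance flags about 1 in 20 groups. The log2 ratio of c/d to a/b counts was -4.68 in db/db replicate 3, against -3.58 to -3.43 in the other db/db libraries. In the same library miR-181c-3p reached 297 CPM, on 11 counts, against 105 to 132 CPM in the other db/db libraries, and miR-181a-5p and miR-181b-5p had their highest levels of all 8. The 3p share of miR-181a counts was 9.28% in db/m replicate 2, on 9 counts of 3p strands, against 7.45% to 7.71% in the other db/m libraries.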

How the results depend on the processing

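Of the 6 miR-181 members tested in the main fit, none passed an adjusted p of 0.05 under any alternative in which it was tested. miR-181c-3p, removed by the main count filter, was not followed through the alternatives. For each 5p strand, 1 alternative counted it together with its cluster partner and so gave both the same value. miR-181c-5p stayed above 0 in all 18 alternatives, that one included, from 0.90 to 1.17 on the log2 scale. Its edgeR or DESeq2 adjusted p ran from 0.0524 (library totals) to 0.466. miR-181d-5p stayed above 0 as well, from 0.20 to 1.42. miR-181b-5p stayed below 0, from -0.50 to -0.06. miR-181a-5p turned to 0.035 under library totals, 0.199 without db/db replicate 4, 0.0168 without db/m replicate 3 and 0.0168 without both db/db replicates 1 and 2; the cause was not tested. Leaving out single libraries gave -0.33 to 0.20 for miR-181a-5p, -0.42 to -0.21 for miR-181b-5p, 0.90 to 1.17 for miR-181c-5p and 0.65 to 1.25 for miR-181d-5p. The difference in the log2 ratio of c/d to a/b counts was 0.93 to 1.43 without single libraries. Its unadjusted exact permutation p was 0.0286 without db/db replicate 3 (1.43), the db/db library inside the db/m range, and 0.0286 for miR-181c-5p over miR-181a-5p (1.20), where the p adjusted over 6 comparisons was 0.171. Without both db/db replicates 1 and 2, an alternative chosen after the data were seen like that without replicates 3 and 4, the c/d to a/b difference was 0.84 (exact permutation p = 0.2).

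Over all miRNAs 7 passed. The count was 12 by edgeR's likelihood ratio test, 16 by DESeq2, 15 with libraries of 1 title number summed, 3 to 18 without single libraries (3 without db/db replicate 1, and likewise without replicate 1 or replicate 4 of db/m; 18 without db/m replicate 3) and 0 without both db/db replicates 1 and 2, where 13 had an unadjusted p under 0.05. No paired analysis was possible, because the replicate numbers only name libraries within a genotype and no title number occurs in both genotypes. Low counts limit miR-181c, miR-181d and the 3p strands, above all in db/m replicate 2.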
